A study of Mus musculus with 9 samples.

Results

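The Bcl2 family survival genes are the 10 members Bcl2, Bcl2l1, Mcl1, Bcl2a1b, Bcl2a1d, Bax, Bak1, Bcl2l11, Bbc3 and Pmaip1, taken by gene name from a table of 54532 mouse genes. All 10 were found, and all 10 passed the filter on low levels (3 or more samples at or above 1 FPKM), as did 12746 genes in all. FPKM is the number of fragments per kilobase of gene scaled to library size, so levels of different genes can be set side by side per length.

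Splenic dendritic cells were compared in a Notch1-driven mouse model of T cell acute lymphoblastic leukemia (T-ALL). N-mDCs (labelled N_DC_hi) were mature conventional dendritic cells from the spleen of healthy mice with no treatment. T-DCs (T_DC_lo) were CD11c+MHCIIlo cells and T-mDCs (T_DC_hi) were mature conventional dendritic cells, both from the spleen of mice bearing T-ALL. In the model, c-kit+ bone marrow cells of C57BL/6J mice received a retrovirus carrying the intracellular part of Notch1 and GFP, and sorted GFP+ leukemia cells were passed to female C57BL/6J or C57B6.SJL mice that were not irradiated and so kept their own blood cells. Cells were taken at the late stage of leukemia after CD11c bead enrichment and sorting. Each group had 3 samples, numbered 1 to 3. The sources used here do not say whether these came from separate or pooled mice, so p-values measure the spread between these samples, which may be technical.

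The proteins of this family decide whether the outer mitochondrial membrane is opened, the step that releases cytochrome c and starts the caspases. Guardians such as Bcl2, Bcl-xL (Bcl2l1), Mcl1 and A1 (the Bcl2a1 genes) hold the effectors Bax and Bak1 in check. BH3-only proteins such as Bim (Bcl2l11), Puma (Bbc3) and Noxa (Pmaip1) bind the guardians, and some also activate the effectors. In dendritic cells the family is known for setting life span, and A1 is known as a target of NF-kB that is induced on activation. Most of this control acts through protein binding and turnover, which RNA does not measure.

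Between 15360815 and 18440913 reads fell on genes per sample, and the lowest member value rested on 163 reads. The labelled cell type was checked against 9 dendritic cell markers. Their summed level was 719 to 832 FPKM in N-mDCs and 731 to 817 FPKM in T-mDCs, but 187 to 709 FPKM in T-DCs, where Flt3, Zbtb46, Batf3, Xcr1, Clec9a and Cd209a were lower than in both other groups. Irf8 was called lower only against T-mDCs, and Itgax and Sirpa were not called. Sirpa had 404, 177 and 100 FPKM in T-DC samples 1 to 3, beside 195 to 244 in N-mDCs and 124 to 230 in T-mDCs. It made up a large part of the sum in T-DC sample 1. None of the 9 was under 1 FPKM in all 3 T-DC samples. The T-DC samples also differed in red cell RNA, with 3.82% of reads from 4 hemoglobin genes in T-DC sample 2 and 3.005% in T-DC sample 3, against 0.0422% in T-DC sample 1 and 0.00111% to 0.405% in the other 6 samples. The summed level of 13 erythroid markers reached 59161 FPKM for T-DC sample 2 and 43524 FPKM for sample 3 but 620 FPKM for sample 1, against 15.7 to 5370 FPKM elsewhere. Neutrophil markers (9 genes) summed to 4362 FPKM for T-DC sample 2, 1534 FPKM for sample 3 and 13.1 FPKM for sample 1, beside 64.0 to 705 FPKM for N-mDCs and 4.97 to 15.7 FPKM for T-mDCs. Proliferation markers (6 genes) were also high in T-DC samples 2 and 3 (714 and 770 FPKM), against 115 FPKM for sample 1 and 111 to 216 FPKM for the mature samples. B cell markers (7 genes) summed to 489 to 3749 FPKM for T-DCs and 793 to 3754 FPKM for N-mDCs, with 356 to 1881 FPKM among T-mDCs. NK cell markers (6 genes) were highest in N-mDCs (44.1 to 117 FPKM), beside 2.19 to 15.7 FPKM for T-DCs and 6.08 to 13.2 FPKM for T-mDCs. Macrophage and monocyte markers (10 genes) summed to 4984 FPKM for T-DC sample 1, 2322 FPKM for sample 2 and 1534 FPKM for sample 3. They covered 2522 to 5161 FPKM in N-mDCs and 764 to 2086 FPKM in T-mDCs. Of the T-DC samples, sample 1 was thus lowest in erythroid and neutrophil markers but highest in macrophage and monocyte markers. The 4 MHCII genes, for which T-DCs were sorted low, summed to 328 to 1452 FPKM among T-DCs and at least 7421 FPKM in every mature sample, and 6 mature dendritic cell markers to 25.6 to 83.5 FPKM and at least 1069 FPKM. The part of these cell types in the results below was not tested. T-mDC samples 2 and 3 were much alike, with a chi-square per gene of 1.85 where 1 is counting noise and other pairs within a group gave 8.11 to 36.1. In sorted bulk samples, fewer cells of a type and less RNA per cell cannot be told apart.

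Differences are given on the log2(FPKM + 1) scale, with standard errors (SE) and adjusted p-values from limma over all 12746 genes, and a gene is called where the adjusted p is under 0.05. This scale understates changes of low genes. Across the 3 groups 6 of 10 members were called, namely Bcl2, Bcl2a1b, Bcl2a1d, Bcl2l11, Bbc3 and Pmaip1, where 18% of all genes tested were called. In these 6 genes no T-DC sample overlapped the mature samples, but the genes were picked by a test on these same samples. The share of all genes tested without such overlap was not computed. Against N-mDCs, Bcl2 and Bbc3 were higher in T-DCs, and 6.1% of all genes were called higher. Bcl2a1b and Pmaip1 were lower, and 10.3% of all genes were called lower. Against T-mDCs, Bcl2 and Bbc3 were also higher, with 5.44% of all genes called higher, and Bcl2a1b, Bcl2a1d, Bcl2l11 and Pmaip1 were lower, with 8.79% called lower. None of the 10 was called between T-mDCs and N-mDCs by limma, where 0.69% of all genes were called higher and 1.52% lower, and 0 of the 10 had an unadjusted p under 0.05. Both comparisons with T-DCs use the same 3 T-DC samples and are not independent. The median difference of the 10 members was -0.35 against N-mDCs, -0.07 against T-mDCs and -0.13 between the mature groups, beside 0.05, 0.07 and 0.03 over all genes tested.

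**Figure D1:**
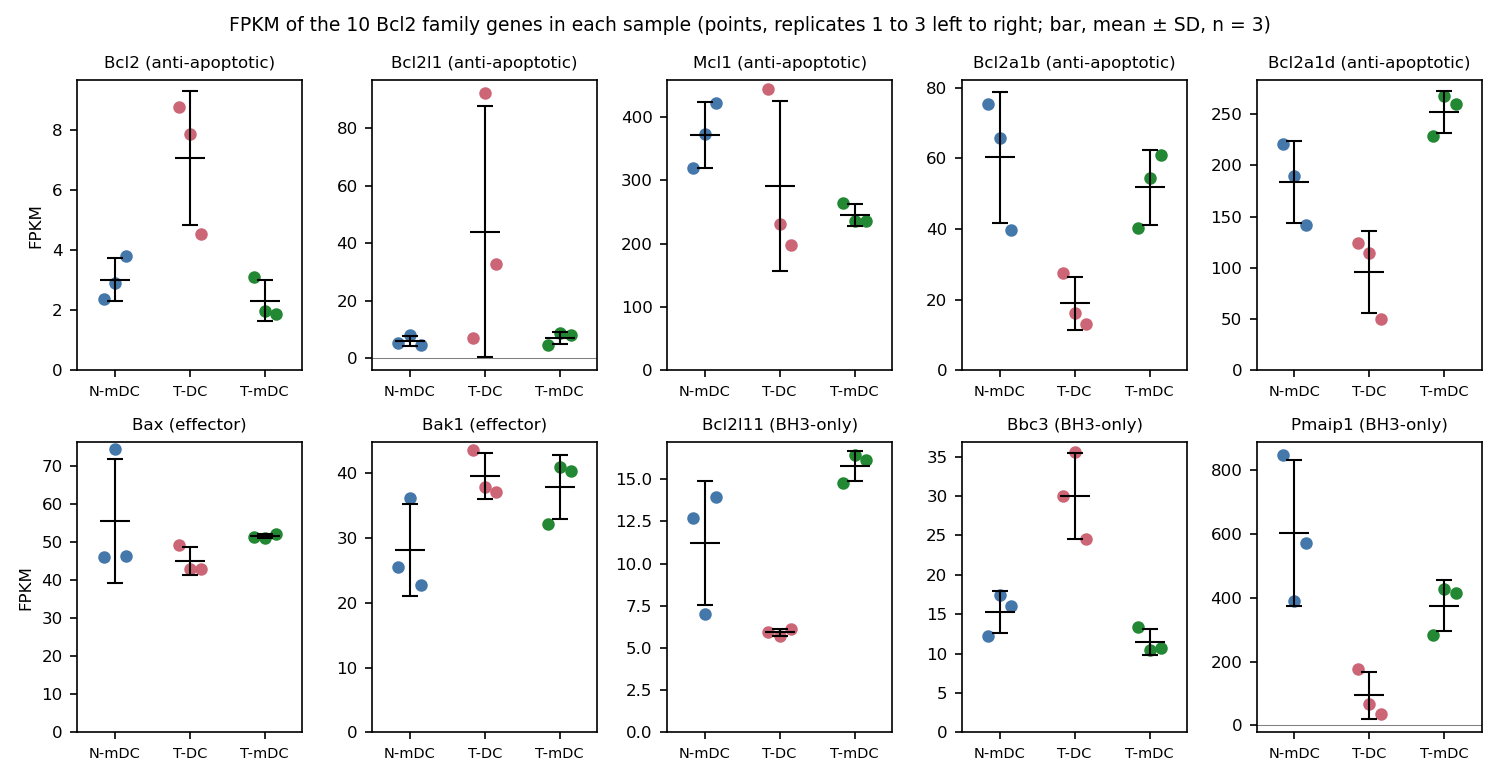
FPKM (y axes, from 0) of the 10 genes in each of the 9 samples by group, with replicates 1 to 3 from left to right as points and the mean ± SD (n = 3) as a bar. T-DC samples lie above all other samples for Bcl2 and Bbc3 and below all others for Bcl2a1b, Bcl2a1d, Bcl2l11 and Pmaip1, while Bcl2l1 is high only in T-DC samples 2 and 3.

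Among the guardians, Bcl2 (ENSMUSG00000057329, GRCm38 chr1:106538178-106714274, minus strand) had the lowest mean level in every group. Its FPKM was 2.37, 2.89 and 3.78 for N-mDC replicates 1 to 3 in order, 8.76, 7.86 and 4.53 in T-DCs, and 3.10, 1.96 and 1.86 in T-mDCs. All T-DC samples were above all mature samples, and the lowest of them, sample 3, lay closest to the N-mDCs. Bcl2 rose in T-DCs by 0.98 against N-mDCs (SE 0.26, adjusted p = 0.0379) and by 1.26 against T-mDCs (SE 0.26, adjusted p = 0.0174), ratios of mean FPKM of 2.34 and 3.05. T-mDCs and N-mDCs overlapped, with a difference of -0.28 (SE 0.26, adjusted p = 0.634). The call against N-mDCs was lost on leaving out any one N-mDC sample, T-DC sample 2, or T-mDC sample 2 or 3 (0.86 to 1.11, adjusted p = 0.0611 to 0.124). That against T-mDCs was lost without T-DC sample 2, T-mDC sample 2 or T-mDC sample 3 (1.17 to 1.19, adjusted p = 0.0667 to 0.0863). T-DC sample 1 had little erythroid RNA but the highest macrophage and monocyte marker sum among T-DCs. With it as the only T-DC, Bcl2 differed by 1.30 from N-mDCs and by 1.58 from T-mDCs. With the erythroid covariate, the mean log2 level of the 13 erythroid markers, the differences were 1.15 (adjusted p = 0.126) and 1.499 (adjusted p = 0.210). The covariate was 3.77, 9.86 and 9.79 in T-DC samples 1 to 3. Most of its spread within groups is therefore between T-DC sample 1 and the other T-DC samples. Here and below, the covariate fit is thus not a check separate from the fit with T-DC sample 1 alone. Exons of the antisense gene D630008O14Rik overlap 558 bases of Bcl2 exons, and whether counting used strand is not given in the sources used here.

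Bcl2l1 (ENSMUSG00000007659, chr2:152780668-152831728, minus strand) encodes Bcl-xL, which is known to be required for the survival of late red cell precursors. Its FPKM was 5.43, 7.92 and 4.48 in N-mDCs, 7.15, 92.3 and 32.9 in T-DCs, and 4.59, 8.61 and 8.06 in T-mDCs. T-DC sample 1 lay within the range of the mature samples, whereas samples 2 and 3 were above all 7 others, a 12.9-fold spread within the group. The difference from N-mDCs was 2.12 (SE 0.74, adjusted p = 0.0806) and that from T-mDCs 1.91 (SE 0.74, adjusted p = 0.123), neither called. T-DC samples 2 and 3 are the ones with the high erythroid, neutrophil and proliferation sums given above, which cannot be told apart here. Without T-DC sample 1 both differences passed the threshold (3.05, adjusted p = 0.00129, and 2.84, adjusted p = 0.00209). With T-DC sample 1 as the only T-DC they were 0.26 (adjusted p = 0.716) and 0.05 (adjusted p = 0.960). With the erythroid covariate they were 0.39 and -0.44, with the sign against T-mDCs turned. In this covariate fit 3.7% of all genes were called against N-mDCs and 0% against T-mDCs, so a call lost there says little about a single gene. The part of erythroid or other such RNA in these results was not tested.

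**Figure D2:**
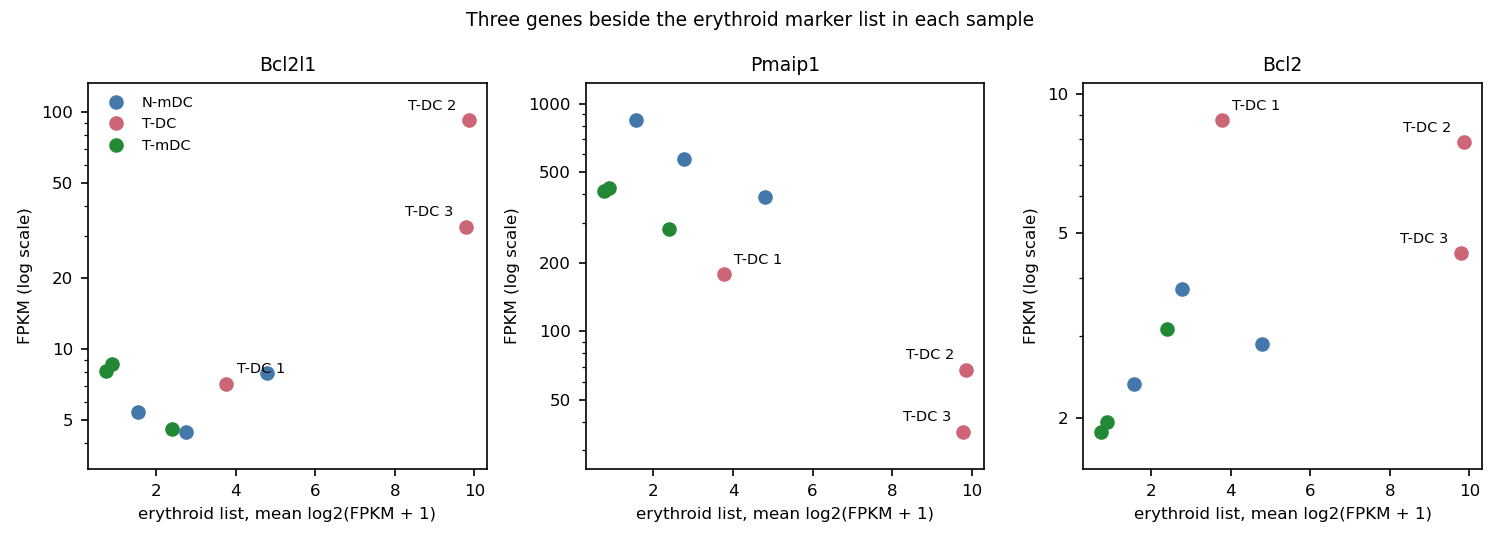
FPKM of Bcl2l1, Pmaip1 and Bcl2 (y axes, log scale) beside the mean log2(FPKM + 1) of the 13 erythroid markers (x axes), with 1 point per sample coloured by group. T-DC samples 2 and 3 lie far to the right at 9.86 and 9.79, T-DC sample 1 at 3.77 lies among the mature samples, and Bcl2l1 is high only at the right while Bcl2 is high in T-DC sample 1 as well.

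Mcl1 (ENSMUSG00000038612, chr3:95658788-95663176, plus strand), a short-lived guardian that Noxa targets, was the most abundant of the 5 guardians in every group except T-mDCs. Its FPKM was 319, 373 and 422 in N-mDCs, 444, 231 and 197 in T-DCs, and 265, 235 and 236 in T-mDCs. The T-DC samples spread from below both mature groups to above them, and all T-mDC samples were below all N-mDC samples. No difference was called (T-DC against N-mDC -0.44, SE 0.30, adjusted p = 0.325, against T-mDC 0.15, SE 0.30, adjusted p = 0.757, and T-mDC against N-mDC -0.59, SE 0.30, adjusted p = 0.360). The 95% interval of the difference between T-DCs and N-mDCs ran from -1.11 to 0.24, which covers a decrease as well as a small increase. Without T-DC sample 1 that difference was -0.79 and passed the threshold (adjusted p = 0.0122), and with sample 1 as the only T-DC it was 0.27 (adjusted p = 0.496). With the erythroid covariate it was 0.14 (adjusted p = 0.854).

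Bcl2a1b (ENSMUSG00000089929, chr9:89199209-89207827, plus strand) and Bcl2a1d (ENSMUSG00000099974, chr9:88723285-88731914, minus strand) are copies of the A1 gene. Their annotated transcripts matched at 810 of 817 aligned bases (99.1%), and 57.6% of all 50-base windows of Bcl2a1b occurred letter for letter in Bcl2a1d. Only 42.4% of Bcl2a1b windows and 20.5% of Bcl2a1d windows of that length were in no other A1 copy. For windows of 150 bases the shares were 85.8% and 69.7%. The split of reads between copies thus depends on read length and on the counting, and is uncertain. Exons of Gm29094, on the same strand, also overlap 401 bases of Bcl2a1b exons. The likeness extends to the DNA before the gene. The stretches before the annotated first exon are shown to let the copies be compared, on the gene's own strand with build GRCm38.p6 from RefSeq, ending 65 bases before the RefSeq start. Capitals mark bases with no identical partner within the other printed stretch, and since the windows are offset this includes ends that face unprinted sequence.
Bcl2a1b, chr9:89199023-89199208, plus strand: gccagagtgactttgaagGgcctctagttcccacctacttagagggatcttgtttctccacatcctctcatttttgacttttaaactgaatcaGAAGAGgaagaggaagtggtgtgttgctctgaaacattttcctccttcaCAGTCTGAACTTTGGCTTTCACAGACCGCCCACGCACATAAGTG
Bcl2a1d, chr9:88731915-88732100, minus strand: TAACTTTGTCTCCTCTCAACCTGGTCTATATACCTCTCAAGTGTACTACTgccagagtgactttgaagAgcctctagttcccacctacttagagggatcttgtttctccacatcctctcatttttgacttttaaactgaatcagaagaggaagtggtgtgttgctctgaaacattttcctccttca
Of 136 aligned bases 135 were identical. Both stretches hold the letters TGAATCA, 164 bases before the RefSeq start of Bcl2a1b and 114 bases before that of Bcl2a1d. They match TGANTCA, the loose pattern searched for as an AP-1 motif, as did 7.81% of all 32851 promoter windows of 300 bases. The pattern takes any middle base, so a match need not be an AP-1 site. Among the 14 RefSeq windows of the 9 members that have one (Pmaip1 was not matched), TGANTCA matched in these 2 only. AGATAA, the GATA motif searched on both strands, was in 1 Bcl2l1 window, 41 bases before that start, and in 11.2% of all windows. The NF-kB motif, searched on both strands, was in 1 Bcl2l1 window and, as 3 overlapping matches, in 1 Bbc3 window, beside 4.51% of all windows. TGACGTCA was in none, beside 1.79% of all. These matches describe letters only.

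Bcl2a1b fell in T-DCs against both mature groups. Its FPKM was 75.5, 65.8 and 39.7 in N-mDCs, 27.5, 16.1 and 13.1 in T-DCs, and 40.3, 54.3 and 61.0 in T-mDCs. All T-DC samples were below all mature samples, which overlapped each other. The difference was -1.64 against N-mDCs (SE 0.33, adjusted p = 0.0137) and -1.45 against T-mDCs (SE 0.33, adjusted p = 0.0236), mean levels that were 3.19 and 2.74 times as high in the mature groups. The first call was lost without N-mDC sample 1 (adjusted p = 0.0553) or T-DC sample 2 (adjusted p = 0.0530), and the second without T-DC sample 2 or 3 or T-mDC sample 2 or 3 (adjusted p = 0.0715 to 0.107). With T-DC sample 1 as the only T-DC the differences were -1.05 (adjusted p = 0.159) and -0.87 (adjusted p = 0.215), and with the erythroid covariate -1.01 (adjusted p = 0.168) and -0.60 (adjusted p = 0.544).

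Bcl2a1d was the more abundant copy in all 9 samples. Its FPKM was 221, 189 and 142 in N-mDCs, 124, 114 and 50.4 in T-DCs, and 229, 267 and 260 in T-mDCs. The groups did not overlap, in the order T-mDC, N-mDC, T-DC. It fell in T-DCs against T-mDCs (-1.48, SE 0.34, adjusted p = 0.0242), whereas the difference of -1.01 from N-mDCs was not called (SE 0.34, adjusted p = 0.0747) and neither was that of 0.47 between the mature groups (SE 0.34, adjusted p = 0.527). Leaving out T-mDC sample 2 or 3 lost the call (adjusted p = 0.102 and 0.0987), and leaving out T-DC sample 1 brought the difference from N-mDCs past the threshold (-1.24, adjusted p = 0.0220). The difference from T-mDCs was -1.02 with T-DC sample 1 as the only T-DC (adjusted p = 0.0727) and -0.82 with the erythroid covariate (adjusted p = 0.470). The other expressed copy, Bcl2a1a, ranged over 44.9 to 90.5 FPKM among N-mDCs, 31.8 to 88.2 among T-DCs and 99.8 to 111 among T-mDCs, and was not called in any comparison. Bcl2a1b took 24.4% ± 2.16 (SD, n = 3) of the summed FPKM of Bcl2a1b and Bcl2a1d in N-mDCs, 17.1% ± 4.28 in T-DCs and 16.9% ± 2.03 in T-mDCs.

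**Figure D3:**
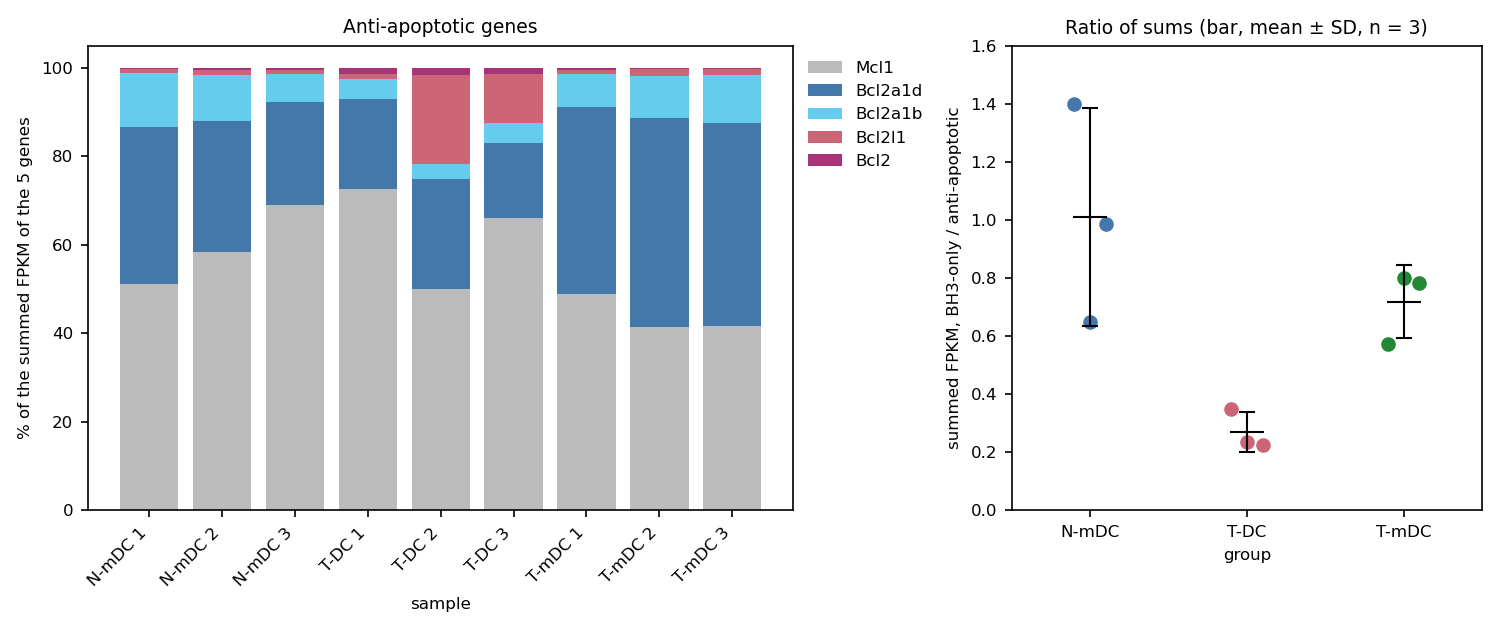
Left, the share of each of 5 anti-apoptotic genes in their summed FPKM (y axis, percent) in each sample. Right, the ratio of the summed FPKM of 3 BH3-only genes to that of the 5 anti-apoptotic genes, by group, with samples as points and the mean ± SD (n = 3) as a bar, where T-DC samples lie between 0.225 and 0.350 and the mature samples between 0.573 and 1.40.

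The 5 guardians summed to 624 ± 13.8 FPKM (SD, n = 3) in N-mDCs, 457 ± 157 in T-DCs and 558 ± 14.4 in T-mDCs. The Bcl2a1b and Bcl2a1d share was lowest in T-DCs (21.3% to 28.2%), then N-mDCs (29.6% to 47.6%), then T-mDCs (49.7% to 56.7%), with no overlap between groups. This share leaves out the other expressed copy, Bcl2a1a. It ranged over 44.9 to 90.5 FPKM among N-mDCs, 31.8 to 88.2 among T-DCs and 99.8 to 111 among T-mDCs. With Bcl2a1a counted in both the A1 level and the guardian sum, the share in T-DC sample 2 lay above that in N-mDC sample 3. The summed FPKM of the A1 copies in T-DC sample 1 likewise lay above that in N-mDC sample 3. The lack of overlap between T-DCs and N-mDCs therefore holds for these 2 copies alone, not for all A1 copies. The Mcl1 share was 59.5% ± 8.98 in N-mDCs, 62.9% ± 11.6 in T-DCs and 44.0% ± 4.24 in T-mDCs. Bcl2l1 took 1.17% in T-DC sample 1 but 19.99% in sample 2 and 11.0% in sample 3, beside 0.732% to 1.52% in the mature samples. Bcl2 took 1.43% to 1.70% in T-DCs and 0.329% to 0.619% in the mature samples. These shares rest on members chosen with earlier results known and were not tested.

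The effectors, which form the pores in the mitochondrial membrane, were not called in any comparison. Bax (ENSMUSG00000003873, chr7:45461697-45466898, minus strand) had 46.0, 74.5 and 46.3 FPKM in N-mDCs, 49.3, 42.9 and 42.8 in T-DCs, and 51.4, 51.2 and 52.2 in T-mDCs. All T-DC samples were just below the T-mDC samples, and N-mDC sample 2 stood above the rest. No Bax difference was called, with -0.27 (SE 0.21, adjusted p = 0.399, 95% interval -0.75 to 0.22) against N-mDCs and -0.20 (SE 0.21, adjusted p = 0.563, interval -0.68 to 0.28) against T-mDCs. Exons of Gm45808, on the same strand, overlap 192 bases of Bax exons.

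Bak1 (ENSMUSG00000057789, chr17:27019810-27029009, minus strand) had 25.6, 36.3 and 22.7 FPKM in N-mDCs, 43.7, 37.9 and 37.1 in T-DCs, and 32.2, 41.1 and 40.3 in T-mDCs. T-DC samples were all above the N-mDC samples and overlapped the T-mDC samples. The difference from N-mDCs was 0.50 (SE 0.21, adjusted p = 0.128) and that from T-mDCs 0.07 (SE 0.21, adjusted p = 0.856, interval -0.41 to 0.54). Without N-mDC sample 2 the former was 0.69 and passed the threshold (adjusted p = 0.0479). Exons of Ggnbp1 overlap 614 bases of Bak1 exons on the opposite strand.

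**Figure D4:**
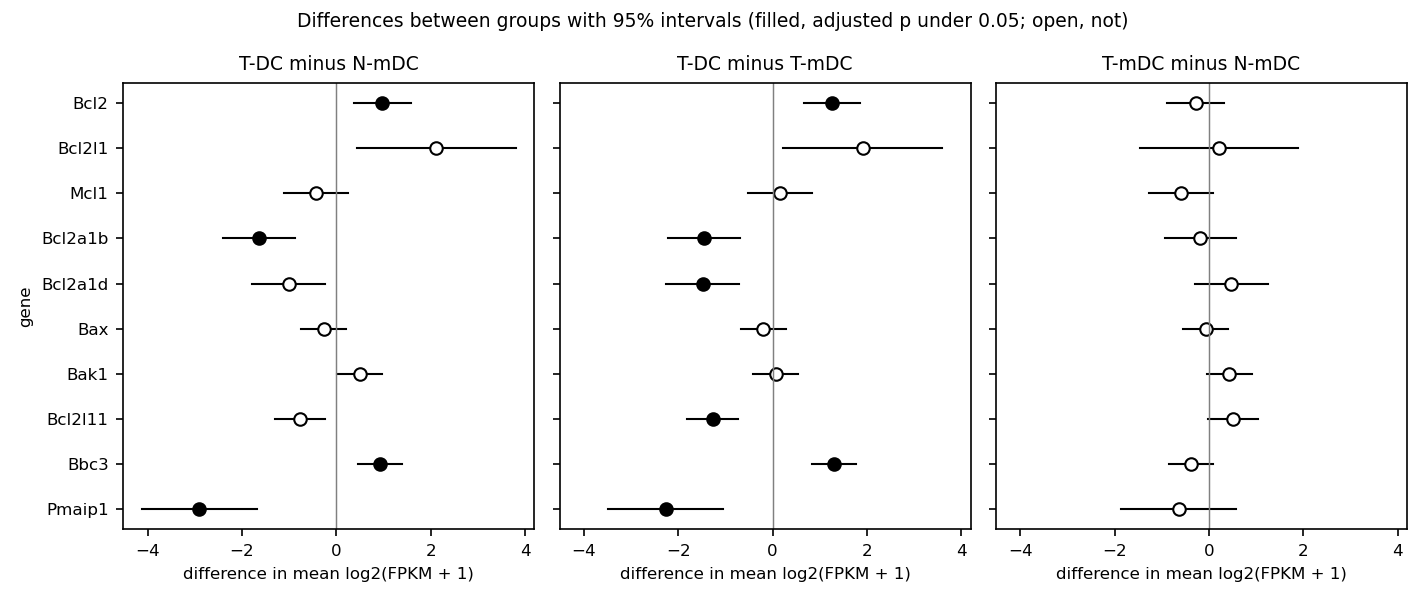
Difference in mean log2(FPKM + 1) (x axes) of each of the 10 genes in 3 comparisons, with 95% intervals as lines, filled points for adjusted p under 0.05 and open points otherwise. Filled points to the right are Bcl2 and Bbc3, filled points to the left include Bcl2a1b and Pmaip1 in both comparisons with T-DCs, and all points are open between T-mDCs and N-mDCs.

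The 3 BH3-only genes moved in different directions. Pmaip1 (ENSMUSG00000024521, chr18:66458604-66465550, plus strand) encodes Noxa, which binds Mcl1 and A1, and was the most abundant of the 10 genes in both mature groups and the third in T-DCs. Its FPKM was 846, 390 and 573 in N-mDCs, 178, 67.7 and 36.2 in T-DCs, and 282, 427 and 416 in T-mDCs. All T-DC samples were below all mature samples, and the mature groups overlapped. Pmaip1 fell, with differences of -2.90 against N-mDCs (SE 0.54, adjusted p = 0.00961) and -2.26 against T-mDCs (SE 0.54, adjusted p = 0.0268), so mean levels were 6.41 and 3.99 times as high in the mature groups. The call against N-mDCs held with any 1 sample left out, and that against T-mDCs was lost without T-DC sample 2 or 3 or T-mDC sample 2 or 3 (adjusted p = 0.0637 to 0.107). With T-DC sample 1 as the only T-DC the differences were -1.68 (adjusted p = 0.0771) and -1.05 (adjusted p = 0.191). With the erythroid covariate they were -1.42 (adjusted p = 0.0637) and -0.26 (adjusted p = 0.788).

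Bbc3 (ENSMUSG00000002083, chr7:16308393-16318205, plus strand) encodes Puma, which binds all guardians and is a well-known p53 target. Its FPKM was 12.3, 17.4 and 16.1 in N-mDCs, 30.0, 35.5 and 24.6 in T-DCs, and 13.4, 10.4 and 10.7 in T-mDCs. Every T-DC sample was above every mature sample. Bbc3 rose by 0.93 against N-mDCs (SE 0.21, adjusted p = 0.0190) and by 1.31 against T-mDCs (SE 0.21, adjusted p = 0.00553), ratios of mean FPKM of 1.97 and 2.61. The call against T-mDCs held with any 1 sample left out and with T-DC sample 1 as the only T-DC (1.32, adjusted p = 0.0436), and was lost with the erythroid covariate (1.10, adjusted p = 0.211). That against N-mDCs was lost without any of N-mDC samples 1 and 3 and T-DC sample 2 (adjusted p = 0.0525 to 0.0728), with T-DC sample 1 as the only T-DC (0.94, adjusted p = 0.0753) and with the erythroid covariate (0.78, adjusted p = 0.158).

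Bcl2l11 (ENSMUSG00000027381, chr2:128126038-128162547, plus strand) encodes Bim, known as a main trigger of dendritic cell death. Its FPKM was 12.7, 7.01 and 13.9 in N-mDCs, 5.98, 5.72 and 6.14 in T-DCs, and 14.8, 16.4 and 16.1 in T-mDCs. The T-DC samples lay within 1.07-fold of each other and below all other samples, and the 3 groups did not overlap. Bcl2l11 fell in T-DCs against T-mDCs (-1.27, SE 0.23, adjusted p = 0.0105) and was not called against N-mDCs (-0.76, SE 0.23, adjusted p = 0.0571). The call was lost without T-mDC sample 2 or 3 (adjusted p = 0.0568 and 0.0566). Leaving out N-mDC sample 2, the lowest of its group, gave -1.04 against N-mDCs (adjusted p = 0.00755), and leaving out T-DC sample 1 gave -0.77 (adjusted p = 0.0469). With T-DC sample 1 as the only T-DC the difference from T-mDCs was -1.26 (adjusted p = 0.0768), and with the erythroid covariate -0.95 (adjusted p = 0.279).

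The summed BH3-only level was 629 ± 229 FPKM (SD, n = 3) in N-mDCs, 130 ± 75.7 in T-DCs and 402 ± 79.6 in T-mDCs. Pmaip1 made up 95.4% ± 1.55 of it in N-mDCs and 93.0% ± 1.78 in T-mDCs but 83.2%, 62.1% and 54.1% in T-DC samples 1 to 3. The ratio of the BH3-only sum to the guardian sum was 1.01 ± 0.376 in N-mDCs, 0.270 ± 0.0693 in T-DCs and 0.718 ± 0.126 in T-mDCs, with all T-DC samples below all others. The ratio of Bbc3 to the guardian sum went the other way, with 0.0491 to 0.0826 in T-DCs and 0.0184 to 0.0272 in the mature samples.

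Fitted without T-DC samples 2 and 3, a choice made after seeing the data, 0 of the 10 genes were called against N-mDCs and 2 against T-mDCs (Bcl2 and Bbc3), with 4 at an unadjusted p under 0.05 against N-mDCs. In that fit 5.85% and 5.81% of all genes tested were called in the same comparisons. The lone T-DC sample is then assumed to vary like the other groups. The direction of all 6 genes called across the 3 groups stayed as above in both comparisons.

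Each of the 6 genes called across the 3 groups was set beside the tested genes whose centred log2 profile over the 9 samples was closest to it, by the root mean square of the differences (RMS). Bcl2 and Bbc3 shared Adipor1 among their closest 3 (RMS 0.168 and 0.107), with Lonrf1 (0.165) and Egln3 (0.173) for Bcl2 and Sertad3 (0.160) and Cln8 (0.163) for Bbc3. Ppp1r11, Lsp1 and Tbc1d10c were closest to Bcl2a1b (0.146 to 0.204), and Serpina3g, Cnn2 and Gprc5c to Bcl2a1d (0.155 to 0.190). Arsb, Atrnl1 and Vangl2 were closest to Bcl2l11 (0.123 to 0.143). Pmaip1, which varied most, had its closest genes further away, with Rtn1, Tbc1d9 and Prss30 at 0.303 to 0.353.

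Of 14 other family genes, 9 were tested, and Bcl2a1c, Bcl2l10, Bok, Bik and Hrk were under 1 FPKM in all samples. Counts for this and the following lists stand beside the shares of all genes tested. Against N-mDCs 6.1% of these were called higher and 10.3% lower in T-DCs. Against T-mDCs the shares were 5.44% and 8.79%, and for T-mDCs against N-mDCs 0.69% and 1.52%. The medians over all genes were 0.05, 0.07 and 0.03 in this order. Against N-mDCs 1 was called higher in T-DCs (Bcl2l13, a mitochondrial family member, 1.32, adjusted p = 0.0367) and 1 lower (Bcl2l14, -2.29, adjusted p = 0.00549), with a median of -0.03. Against T-mDCs 0 were called higher and Bcl2l14 was lower (-3.13, adjusted p = 0.00197), with a median of -0.15. Bcl2l14 ranged over 4.25 to 13.1 FPKM among N-mDCs, 11.9 to 13.5 among T-mDCs and 0.209 to 0.996 among T-DCs, and Bcl2l13 was highest in T-DC samples 2 and 3 (16.3 and 20.6 FPKM against 6.39 in sample 1). Between T-mDCs and N-mDCs Bcl2l15 was higher (1.32, adjusted p = 0.0399). The BH3-only genes Bid, Bad and Bmf were not called, and Bid had 9.48 to 11.9 FPKM in all 9 samples.

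Of 20 genes of the machinery that acts with or after the family, 19 were tested. Against N-mDCs, T-DCs had higher Htra2, a mitochondrial protease that antagonises inhibitors of apoptosis (0.89, adjusted p = 0.0131), and lower Birc2, an inhibitor of apoptosis protein (-1.02, adjusted p = 0.0325). Against T-mDCs 0 were higher and 5 were lower, led by Birc2 (-2.31, adjusted p = 0.00197), the death receptor Fas (-1.98, adjusted p = 0.00388) and the executioner Casp6 (-1.14, adjusted p = 0.0104), with Birc3 and Cflar, which blocks caspase-8. T-mDCs had more Birc2 (1.28, adjusted p = 0.0469) and Fas (1.66, adjusted p = 0.0261) than N-mDCs. Fas ranged over 16.2 to 25.8 FPKM among T-mDCs, 5.21 to 7.06 among N-mDCs and 2.999 to 6.63 among T-DCs. The medians over the 19 were 0.05, -0.07 and 0.40.

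All 17 genes chosen as known regulators of the family were tested. Against N-mDCs 2 were higher in T-DCs, Foxo3, a factor known to drive Bcl2l11 and Bbc3 (1.71, adjusted p = 0.0262), and Ccng1, a p53 target (0.72, adjusted p = 0.0459). Lower were 5, led by the NF-kB subunit Relb (-2.88, adjusted p = 0.00151), the p53 targets Sesn2 (-1.74, adjusted p = 0.00171) and Cdkn1a (-1.96, adjusted p = 0.00353), with Rel and Foxo1. Against T-mDCs 1 was higher (Foxo3, 1.83, adjusted p = 0.0222) and 4 were lower, led by Relb (-3.29, adjusted p = 0.00143), Rel (-2.29, adjusted p = 0.0207) and Sesn2 (-0.80, adjusted p = 0.0375), with Foxo1. Relb ranged over 84.0 to 144 FPKM among N-mDCs, 110 to 159 among T-mDCs and 8.43 to 19.2 among T-DCs. Foxo3 had 15.8 FPKM in T-DC sample 1 and 61.2 and 41.5 in samples 2 and 3, against 8.54 to 11.6 in the mature samples. Trp53 itself, with 19.5 FPKM in T-DC sample 1 and 35.8 and 49.0 in samples 2 and 3, was not called (0.59, adjusted p = 0.183, against N-mDCs). Between the mature groups only Cdkn1a was called, lower in T-mDCs (-1.63, adjusted p = 0.0263). The medians over the 17 were -0.51, -0.33 and 0.02.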

How the data were processed

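RNA from 9 sorted samples, 3 per group, was extracted with RNeasy and sequenced on Illumina libraries by Novogene. The authors deposited FPKM per gene with gene lengths, and per the submitters' processing notes the build was mm10. The aligner, counter, annotation and strand setting are not given in the sources used here. FPKM times length gave whole reads within 5.59e-05 of a read. Gene positions are those of the deposited table, and exon overlaps and A1 transcripts come from GENCODE M21 on the same build. limma 3.58.1 in R 4.3.3 was fitted to log2(FPKM + 1) of 12746 genes that reached 1 FPKM in 3 or more samples, with all 9 samples, a variance trend and Benjamini-Hochberg adjustment over all genes at 0.05. In total 207 rows share a symbol with another row, none of them a member. The script was tested on simulated data. The members, lists and most alternatives were chosen with earlier results of these data known. All 10 members are named, and of other lists the genes called, or the 3 with the lowest adjusted p where more than 3 were called, with the rest of those named without values. Values of other genes in the text were chosen after they were seen. Neighbours are the 3 tested genes of smallest RMS. The 24 alternatives covered pseudocount, filter, scaling, weights, variance trend, replicate block, samples left out, erythroid covariate and reads recovered from the FPKM (voom). No protein sequence was used here.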

Additional observations from a re-analysis of the deposited data

How the results depend on the processing

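The direction of no call was reversed under any of the 24 alternatives. Across the 3 groups 6 members were called, against 10 with array weights, 3 with T-mDC samples 2 and 3 averaged into 1, 1 with the erythroid covariate, 2 without T-DC samples 2 and 3, and 1 (without T-DC sample 2) to 8 (without T-DC sample 1) with 1 sample left out, including 2 and 3 without T-mDC sample 2 or 3. Against N-mDCs 4 were called in T-DCs, against 2 with TPM, 2 with only the groups compared, 9 with array weights, 0 with the erythroid covariate (4 at an unadjusted p under 0.05), 0 without T-DC samples 2 and 3, and 1 to 8 with 1 sample left out, where N-mDC sample 1 or T-DC sample 2 gave 1, N-mDC sample 3 gave 2 and T-DC sample 1 gave 8. Against T-mDCs 6 were called, against 3 with no filter, 1 with the averaged T-mDC samples, 0 with the erythroid covariate (3 at an unadjusted p under 0.05), 2 without T-DC samples 2 and 3, and 1 to 7 with 1 sample left out, where T-mDC sample 2 or 3 gave 1, T-DC sample 2 gave 3 and T-DC sample 1 gave 7. Between T-mDCs and N-mDCs 0 were called, against 3 with array weights, and 0 with 1 sample left out. The causes were not tested. The share of all genes called moved too, in the comparisons of T-DCs with N-mDCs and T-mDCs respectively. It was 66.6% and 77.9% with array weights, 39.5% and 35.1% without T-DC sample 1, 7.99% and 6.47% without T-DC sample 2, 3.7% and 0% with the erythroid covariate, 5.85% and 5.81% without T-DC samples 2 and 3, and 10.9% and 4.24% with the averaged T-mDC samples. Over the 3 groups it was 84.4%, 42.2%, 8.39%, 5.59%, 11.5% and 8.44% in these fits, in the same order. Against N-mDCs it was 11.8% with TPM, 8.39% with only the groups compared, and 7.69% and 8.17% on dropping N-mDC sample 1 or 3. Against T-mDCs it was 4.43% with no filter and 4.26% and 4.24% without T-mDC sample 2 or 3. Between the mature groups it was 30.1% with array weights.

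Array weights did not converge and gave T-DC sample 2 a weight of 46.6 and T-DC sample 1 one of 0.0872, so these counts rest mostly on 1 T-DC sample. TPM shifted the median over all genes by -0.11 against N-mDCs, -0.32 against T-mDCs and 0.22 between the mature groups, and voom on recovered reads by -0.14 against T-mDCs. Deviations of samples with the same number correlated from -0.47 to 0.27. Samples of different number were not compared in this way, so these values cannot show whether T-DC and T-mDC samples were paired by mouse. The main fit treats all samples as unpaired. With the replicate block 5, 3, 6 and 0 members were called over the 3 groups, against N-mDCs, against T-mDCs and between the mature groups, and Bcl2 against N-mDCs was lost (adjusted p = 0.0699). Of the 24 alternatives, the Bbc3 call against T-mDCs held in 23 and the Pmaip1 call against N-mDCs in 22, whereas the Bcl2 call against N-mDCs held in 10 of 23, since Bcl2 left the test at an FPKM of at least 5. With 3 samples per group, small differences could not be detected, as the intervals show.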
